A study of Mus musculus with 30 samples.

Results

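Fas and 9 genes of the BCL2 family were followed across bone marrow (BM) and adipose tissue macrophages (ATMs) of mice that carried Shp2E76K/+ hematopoietic cells. The 10 genes were taken by symbol, in a choice made with earlier results of these data known. All 10 are listed in both deposited count tables, among 13353 genes in BM and 17059 in ATMs. In ATMs, 7 of the 10 genes rose in vehicle-treated obese recipients compared with lean recipients, where 12.5% of all genes rose and 22.9% fell. Among the 7 were Fas (3.37-fold), Bcl2l1 (4.46-fold), Bbc3 (5.04-fold) and Bid (4.08-fold). In BM 1 of the 10 rose past the same limits, Pmaip1 (2.75-fold), a share near the 9.44% of all genes, and Fas and Bid were lower at the adjusted p alone. Under combined treatment, 4 of the 10 fell in ATMs compared with vehicle (Fas, Bcl2l1, Bbc3 and Bid), where 12.2% of all genes fell, and 2 of the 10 in BM (Pmaip1 and Bbc3), where 11.1% did.

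Cells carry an external and an internal route to apoptosis. Fas is a death receptor at the cell surface, and its ligand recruits the adaptor FADD and caspase-8, which can cut BID and so pass the signal to mitochondria. There, BAX and BAK form pores in the outer membrane, the prosurvival proteins BCL2, BCL-XL (encoded by Bcl2l1) and MCL1 hold them in check, and the BH3-only proteins BIM (Bcl2l11), PUMA (Bbc3), NOXA (Pmaip1) and BID tip the balance toward death. BH3-only genes are controlled by stress and cytokine signals, PUMA and NOXA by p53 among others. Neutrophils, which are short-lived, depend on MCL1.

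Poly(A) RNA was sequenced from whole BM and from F4/80+ cells sorted from visceral fat, with 3 libraries in each of 5 groups per tissue. All groups, controls included, had been lethally irradiated (700 and 400 cGy) and given CD45.2+ cells of Shp2E76K/+;LysM-Cre+ donors mixed in equal number with CD45.1+ competitor cells of Boy/J mice. LysM-Cre acts mainly in myeloid cells. After this transplant BM held cells of the mutant donors, competitor cells and any surviving host cells together, and no label ties a library to its donor. WT denotes lean C57BL/6 recipients, for which no treatment is stated. A figure legend of the study words the ATM contrast by donor genotype instead, as mutant against WT donor cells in Ob/Ob recipients, so what Vehicle vs WT compared in ATMs is given here as the labels have it and was not settled. The other 4 groups were leptin-deficient Ob/Ob recipients treated for 30 days from 8 weeks after transplantation with vehicle (Vehicle), with the GLP-1R agonist beinaglutide at 3 mg/kg subcutaneously, with 200 µg of an anti-IL-17A antibody per mouse intraperitoneally 3 times per week, or with both (Combo). The labels put the mice at 12 to 14 weeks of age and of both sexes, and call the 3 libraries of a group biological replicates. The study's methods state a younger range for recipients at transplantation, so the time point of the labelled age was not settled.

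Library totals ran from 31086184 to 39925495 counts for BM and from 24876074 to 45300263 counts for ATMs. The spread between replicates, as the biological coefficient of variation, was 3.51% in BM and 32.5% in ATMs, so smaller changes passed the test in BM. The adjusted p in BM rests on that narrow spread. Whether it is the spread between separate mice was not tested. The chi-square per gene between the counts of a replicate pair was 2.02 to 4.21 in most BM pairs and 11.7 to 26.8 in ATMs. For BM WT replicate 1 it was 34.8 against replicate 2 and 26.6 against replicate 3, so this library stood apart. Normalized counts are counts scaled to a common library size within a tissue, and levels of the tissues are therefore not on the same scale. Genes counted as called had an adjusted p (Benjamini-Hochberg, edgeR's quasi-likelihood test) below 0.05 and a log2 fold change beyond 1 in either direction, and the count at the adjusted p alone is given beside it. Every comparison with Vehicle rests on the same 3 Vehicle libraries of that tissue.

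Some libraries stood apart from what their labels state. Xist, the RNA of the inactive X chromosome, had 5284 to 6250 counts in BM Vehicle and 3382 to 3555 in BM Combo, but 0 to 3 in WT, 0 to 6 under the GLP-1R agonist and 87 to 125 under anti-IL-17A. In ATMs it had 747 to 1024 counts in Vehicle, 1098 to 1400 in Combo and at most 53 in any library of the other groups. The labels describe the groups as matched for sex, yet the sex of the sequenced cells and the group cannot be told apart in Vehicle vs WT, in either single agent vs Vehicle, in Combo vs WT, in Combo vs either single agent or in the departure from additivity. Combo vs Vehicle compares groups that both express Xist. The summed normalized counts of 5 sex-linked genes, Xist among them, still differed in BM, at 8667 to 8995 in Vehicle and 3974 to 4080 in Combo. This sum was 5140 to 5801 in BM WT, where Xist had 0 to 3 counts. It thus mixes Xist with genes read where Xist is nearly absent, and the total cannot give the sex makeup. Whether Vehicle and Combo had the same sex makeup was not tested.

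The ATM libraries also differed in the markers of their sort. Adgre1, which encodes F4/80, had 750 to 1184 counts in Vehicle against 5363 to 6993 in WT, 9596 to 15322 under the GLP-1R agonist, 35909 to 42339 under anti-IL-17A and 13827 to 15551 in Combo. The summed normalized counts of 9 neutrophil markers were 726456 to 769111 in Vehicle and 427277 to 437150 in Combo, against 15330 to 15834 in WT, 8199 to 8451 under the GLP-1R agonist and 15132 to 15359 under anti-IL-17A. The sum of 6 adipocyte markers was 132791 to 140926 in Vehicle and 36732 to 42471 in the other groups, and that of 9 monocyte and macrophage markers was 78178 to 83188 in Vehicle, 110212 to 117869 in WT and 285288 to 425223 in the treated groups. The sum of 5 epididymis genes was 105805 to 111014 in WT and 0 to 19 in Vehicle. It was 1399 to 5930 under the single agents and 0 to 14 in Combo. That of 8 stromal and endothelial markers was 456563 to 481878 in WT, 208856 to 218640 in Vehicle and 386176 to 704148 in the treated groups. Fewer cells of a type and less RNA per cell cannot be told apart in such data, and the part of cell makeup in the changes described here was not tested.

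Fas (chr19:34290666-34327772, plus strand, GRCm38) and Bid (chr6:120891930-120916853, minus strand) had the widest gaps of the 10 genes between the tissues in Vehicle vs WT, and the sequences upstream of their RefSeq start sites are shown for that reason. They are from RefSeq on GRCm38.p6, written 5′ to 3′ on the strand of the gene, with capitals for a match to the interferon-gamma-activated motif TTCNNNGAA. The Fas window is chr19:34290409-34290658 and the Bid window chr6:120916854-120917074.
Fas: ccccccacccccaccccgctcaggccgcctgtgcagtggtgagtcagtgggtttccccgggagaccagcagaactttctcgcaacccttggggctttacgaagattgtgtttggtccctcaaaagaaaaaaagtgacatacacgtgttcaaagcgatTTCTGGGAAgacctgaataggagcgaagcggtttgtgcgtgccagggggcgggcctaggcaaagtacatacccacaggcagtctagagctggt
Bid: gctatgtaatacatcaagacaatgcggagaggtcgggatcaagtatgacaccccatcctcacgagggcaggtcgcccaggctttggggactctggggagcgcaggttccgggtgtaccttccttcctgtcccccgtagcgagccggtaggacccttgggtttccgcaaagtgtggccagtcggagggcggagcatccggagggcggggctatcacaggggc

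The match in Fas lies 93 to 85 bases before the start site. On both strands, the motif TTCNNNGAA occurs in 8.3% of 32851 RefSeq promoters of 300 bases, and among 14 promoters of the 9 matched members it was found in Fas alone. An interferon-response motif of TTTC, any 2 bases and TTTC, present in 3.44% of promoters, was found in none of the 14. The NF-kB motif (4.51% of promoters) was found in Bbc3 and Bcl2l1, and the p53 decamer motif (8.36%) in Bax. A match describes these letters and shows no binding.

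Per kilobase of annotated exon, Mcl1 had the highest level of the 10 genes in each group of both tissues, at 190.1 CPM (library-scaled counts) per kilobase in BM and 85.0 in ATMs of WT recipients. In BM, Bak1 came second in each group (51.3 in WT) and Bcl2 last (2.62 in WT). In ATMs the order was different, with Bak1 last in each group (1.12 in WT) and Pmaip1 second in WT (46.3 CPM per kilobase).

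In BM, Vehicle vs WT compared the 10 genes between vehicle-treated obese recipients and lean recipients, which also differed in Xist. Of the 10 genes, 1 rose (Pmaip1) and 0 fell, where 9.44% of all genes tested rose and 10% fell. At the adjusted p alone, 10 of 10 differed, 8 higher and 2 lower in Vehicle, but so did 76.6% of all genes. The libraries of both groups did not overlap for any of the 10 genes, which held for 75.8% of all genes in BM.

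**Figure D1:**
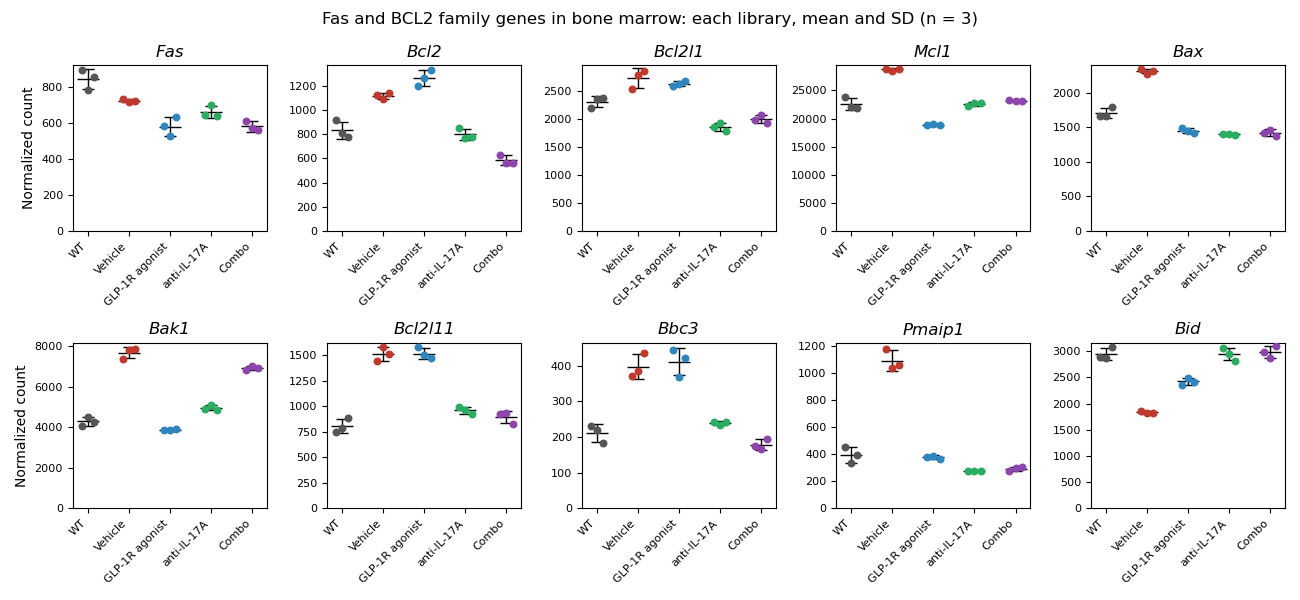
Normalized counts (linear axes from 0) of the 10 genes in the 15 BM libraries, 1 point per library, with the group mean and SD (n = 3). Vehicle is highest for Pmaip1 (1032 to 1176), Bak1, Bax and Mcl1, and lowest for Bid (1811 to 1860).

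Fas in BM had 894, 784 and 853 normalized counts in WT and 733, 715 and 721 in Vehicle, so each Vehicle library lay below each WT library. The log2 fold change was -0.22 (standard error 0.0676, adjusted p = 0.00304). The order of the group means was WT, Vehicle, anti-IL-17A (644, 697 and 638), Combo (611, 570 and 557) and the GLP-1R agonist (579, 524 and 633). The last 2 groups overlapped, while each other neighbor in the order was separate. Fas was thus not higher than in WT in any obese group of BM.

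Among the prosurvival genes of BM, Bcl2 had 915, 807 and 782 normalized counts in WT and 1128, 1089 and 1138 in Vehicle, which is 0.42 higher on the log2 scale (standard error 0.0620, adjusted p = 1.21e-07). Bcl2l1 differed by 0.24 and Mcl1 by 0.34 on the log2 scale, both higher in Vehicle at the adjusted p alone. Mcl1 encodes a short-lived protein, and its normalized counts were 28500 to 28870 in Vehicle against 21932 to 23886 in WT.

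The pore-forming genes of BM were higher in Vehicle without reaching a log2 fold change of 1. Bak1 had 4092, 4510 and 4287 normalized counts in WT and 7379, 7841 and 7861 in Vehicle (log2 fold change 0.84, standard error 0.0315, adjusted p = 3.07e-25). Bax had 1661 to 1793 in WT and 2272 to 2339 in Vehicle (log2 fold change 0.44). Of the exon length, 25.5% is shared with Ggnbp1 for Bak1 and 12.2% with Gm45808 for Bax, and reads there were counted for each gene without regard to strand.

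The BH3-only genes of BM split. Pmaip1, which encodes NOXA, had 455, 333 and 395 normalized counts in WT and 1176, 1032 and 1059 in Vehicle, and rose by 1.46 on the log2 scale (standard error 0.0805, adjusted p = 1.56e-19). Bcl2l11 (748 to 883 in WT, 1441 to 1580 in Vehicle) and Bbc3 (183 to 230 in WT, 372 to 437 in Vehicle) each differed by 0.91 on the log2 scale, just inside the limit. Bid went the other way, with 2894, 2876 and 3081 normalized counts in WT and 1860, 1811 and 1823 in Vehicle (log2 fold change -0.69, standard error 0.0402, adjusted p = 1.05e-18). Bid shares 17.7% of its exon length with Bcl2l13, whose own log2 fold change was 0.26.

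Other genes moved with the Vehicle group in BM. The summed normalized counts of 11 interferon-stimulated genes were 210066 to 211554 in Vehicle, 17212 to 17360 in WT and 7655 to 10368 in the treated groups. The sum of 10 B cell markers was 47751 to 49019 in WT, 13688 to 14439 in Vehicle, 15631 to 16015 under anti-IL-17A, and 4468 to 5036 under the GLP-1R agonist and in Combo. The sum of 9 monocyte and macrophage markers was 519023 to 528579 in WT and 262675 to 267126 in Vehicle. That of 5 erythroid markers was 29727 to 33181 in WT and 18009 to 19095 in Vehicle. That of 6 stem and progenitor markers was 4099 to 4275 and 2725 to 2798. Neutrophil markers (9) were higher in Vehicle, at 4146480 to 4209680 against 3640070 to 3908400. Immature granulocyte markers (5) were 175778 to 194771, 149613 to 153668 and, in Combo, 366557 to 371555. The part of these in the members' changes was not tested.

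Single agents were set against Vehicle in BM to see whether the genes that were higher in Vehicle than in WT were lower under each. Under the GLP-1R agonist 1 of 10 genes fell (Pmaip1), as did 9.08% of all genes, and 7 of 10 differed at the adjusted p alone (72.8% of all genes). Under anti-IL-17A 1 of 10 fell, again Pmaip1, as did 8.46% of all genes, and 9 of 10 differed at the adjusted p alone (73% of all genes). Pmaip1 had 380, 390 and 367 normalized counts under the GLP-1R agonist (log2 fold change -1.52, standard error 0.0807, adjusted p = 4.54e-20) and 274, 274 and 276 under anti-IL-17A (-1.99, standard error 0.0841, adjusted p = 2.42e-23). All 6 of these libraries lay far below Vehicle, the latter 3 also below each WT library.

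Bcl2l11 and Bbc3 separated the agents in BM. Under the GLP-1R agonist Bcl2l11 had 1471 to 1577 and Bbc3 369 to 444 normalized counts, both overlapping Vehicle, with log2 fold changes of 0.01 (95% interval -0.12 to 0.13) and 0.05 (-0.16 to 0.26). Under anti-IL-17A the log2 fold changes were -0.65 for Bcl2l11 and -0.73 for Bbc3, with no overlap. Bak1 was closest to Vehicle in Combo and farthest from it under the GLP-1R agonist (3858 to 3932 normalized counts, log2 fold change -0.99), where it lay just within the limit.

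Combo vs Vehicle asked what both agents did together in BM. Of the 10 genes, 2 fell, Pmaip1 and Bbc3, and 0 rose, where 11.1% of all genes fell and 6.58% rose, and 10 of 10 differed at the adjusted p alone (73.8% of all genes), 9 lower and Bid higher. Pmaip1 had 273, 299 and 303 normalized counts in Combo (log2 fold change -1.90, standard error 0.0847, adjusted p = 1.1e-22). Bbc3 had 175, 166 and 196 (log2 fold change -1.15, standard error 0.106, adjusted p = 1.38e-12), with 1 library inside and 2 below the range of WT. Bid had 2984, 2873 and 3092 normalized counts, which overlapped WT and lay above each Vehicle library (log2 fold change 0.70).

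Bcl2 in BM had 631, 560 and 566 normalized counts in Combo, below the libraries of each other group. The log2 fold change was -0.93 against Vehicle and -0.51 against WT, and -1.11 against the GLP-1R agonist, where Bcl2 had 1204, 1262 and 1332. Bak1 stayed high, at 6823 to 7014 in Combo, with log2 fold changes of 0.69 against WT and -0.15 against Vehicle, both past the adjusted p.

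Against WT, 0 of 10 genes were called in BM Combo by edgeR and by DESeq2, while 14.3% of all genes were by edgeR, and 7 of 10 differed at the adjusted p alone (73.3% of all genes) and 8 of 10 at an unadjusted p below 0.05. Mcl1 and Bid overlapped WT, with log2 differences of 0.03 (95% interval -0.02 to 0.09) and 0.02 (-0.07 to 0.10). Against the GLP-1R agonist 2 of 10 were lower in Combo (Bbc3 and Bcl2), as were 8.57% of all genes, and 8 of 10 differed at the adjusted p alone (71.4% of all genes). Against anti-IL-17A 0 of 10 were called by edgeR and by DESeq2 (5.67% of all genes by edgeR), and 5 of 10 differed at the adjusted p alone (52.5% of all genes) and also at an unadjusted p below 0.05.

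The departure of Combo from additivity is the log2 change in Combo minus the sum of the changes under both single agents, each against Vehicle. In BM it was positive past the limits for 2 of 10 genes (9.59% of all genes), namely Pmaip1 (1.61, standard error 0.126) and Bak1 (1.47, standard error 0.0444), and 8 of 10 passed the adjusted p alone (68.6% of all genes). Pmaip1 was at -1.52 and -1.99 under the single agents and at -1.90 under both on the log2 scale against Vehicle. Bak1 was at -0.99 and -0.63 under the single agents and at -0.15 under both.

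In ATMs, Vehicle vs WT was read in the same way, as the labels name the groups. Of the 10 genes, 7 rose and 0 fell, where 12.5% of all genes rose and 22.9% fell, and 8 differed at the adjusted p alone (56.9% of all genes). The libraries of both groups did not overlap for any of the 10 genes, which held for 62.9% of all genes in ATMs. Those that rose hold the receptor, both pore-forming genes, 2 of 3 prosurvival genes and 2 of 4 BH3-only genes. The median of all genes in this comparison was a log2 fold change of -0.21.

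**Figure D2:**
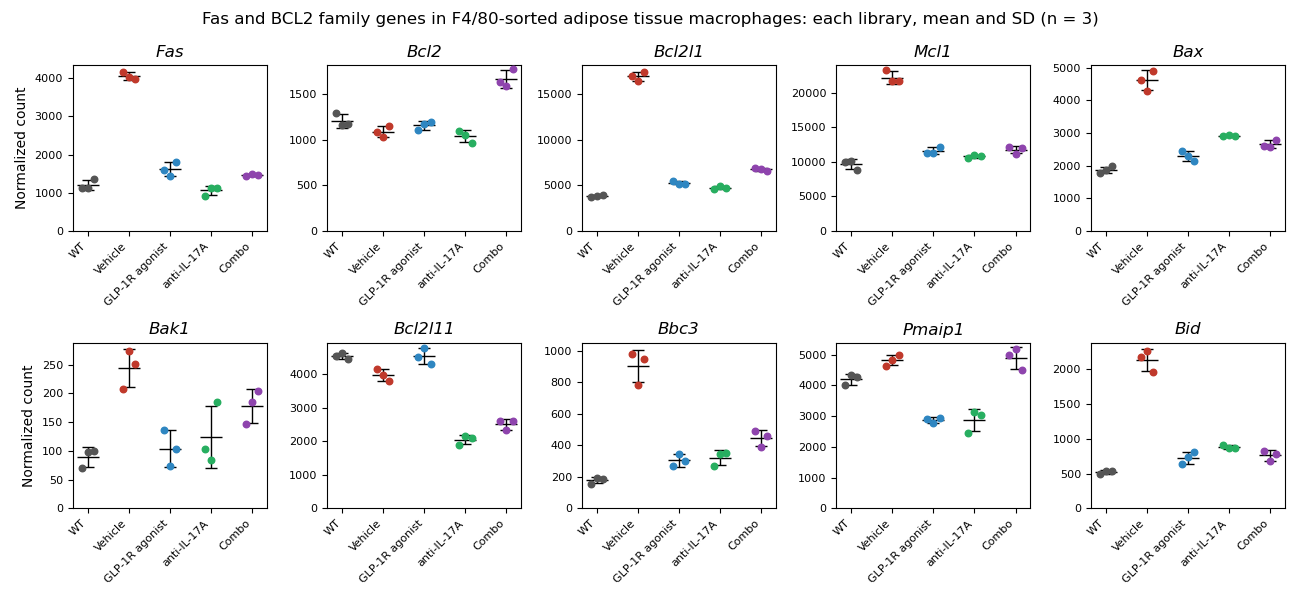
Normalized counts (linear axes from 0) of the 10 genes in the 15 ATM libraries, 1 point per library, with the group mean and SD (n = 3). The 3 Vehicle libraries lie above all 12 others for Fas, Bcl2l1, Mcl1, Bax, Bak1, Bbc3 and Bid, and Combo lies above all others for Bcl2.

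Fas in ATMs had 1124, 1129 and 1361 normalized counts in WT and 4176, 4022 and 3974 in Vehicle. It rose by 1.75 on the log2 scale (standard error 0.111, adjusted p = 1.78e-09). Each of the 3 Vehicle libraries was far above every other ATM library.

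Bcl2l1, which encodes BCL-XL, rose most among the prosurvival genes, from 3682, 3801 and 3907 normalized counts in WT to 17004, 16389 and 17430 in Vehicle (log2 fold change 2.16, standard error 0.0473, adjusted p = 2.64e-15). Mcl1 had 9962, 10139 and 8833 in WT and 23265, 21658 and 21738 in Vehicle (log2 fold change 1.20, standard error 0.0556, adjusted p = 3.45e-11). Bcl2 did not pass the test, with 1159 to 1293 normalized counts in WT and 1027 to 1149 in Vehicle (log2 fold change -0.15, 95% interval -0.37 to 0.07, adjusted p = 0.211). Bcl2 was the 1 prosurvival gene of 3 that was not called.

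Bax rose from 1788, 1855 and 1976 normalized counts in WT to 4625, 4290 and 4902 in Vehicle (log2 fold change 1.30, standard error 0.0754, adjusted p = 5.23e-10). Bak1 rose as well (log2 fold change 1.44, standard error 0.375, adjusted p = 0.00393), but from few reads. It had 59, 94 and 91 counts in WT and 155, 186 and 168 in Vehicle, and its standard error was the widest of the 10 genes.

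Among the BH3-only genes of ATMs, Bbc3 (PUMA) rose most, from 156, 194 and 188 normalized counts in WT to 982, 787 and 946 in Vehicle (log2 fold change 2.33, standard error 0.194, adjusted p = 4.64e-08). Bid rose from 491, 534 and 545 to 2181, 2263 and 1958 (log2 fold change 2.03, standard error 0.125, adjusted p = 1.14e-09), while Bcl2l13, which shares exon sequence with it, had a log2 fold change of 0.18. Bcl2l11 was slightly lower in Vehicle (3809 to 4162 against 4472 to 4651 in WT, log2 fold change -0.19). Pmaip1 had 3997 to 4323 in WT and 4641 to 4972 in Vehicle (log2 fold change 0.20, adjusted p = 0.0577). The gene that led in BM was therefore not called in ATMs.

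Each single agent was then compared with Vehicle in ATMs. Under the GLP-1R agonist 6 of 10 genes fell, as did 10.9% of all genes, and 9 of 10 differed at the adjusted p alone (53.8% of all genes). Under anti-IL-17A 5 of 10 fell, as did 13.1% of all genes, and 9 of 10 were lower at the adjusted p alone (58.1% of all genes in either direction).

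Fas had 1609, 1435 and 1797 normalized counts under the GLP-1R agonist (log2 fold change -1.33, standard error 0.109, adjusted p = 4.92e-08) and 920, 1129 and 1132 under anti-IL-17A (-1.94, standard error 0.111, adjusted p = 5.4e-10). The anti-IL-17A libraries overlapped WT, and the GLP-1R agonist libraries lay above it. Bcl2l1, Bbc3 and Bid also fell under either agent, with log2 fold changes of -1.69, -1.57 and -1.55 for the GLP-1R agonist and -1.84, -1.49 and -1.27 for anti-IL-17A. Bax fell under the GLP-1R agonist (log2 fold change -1.01) and Mcl1 under anti-IL-17A (-1.04), each at the edge of the limit, and Bak1 fell under the GLP-1R agonist (-1.22, standard error 0.372).

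Bcl2l11, which encodes BIM, again separated the agents. It had 4514, 4796 and 4318 normalized counts under the GLP-1R agonist, overlapping WT, and 1900, 2167 and 2096 under anti-IL-17A, well below each WT and Vehicle library (log2 fold change -0.96 against Vehicle, standard error 0.0712, adjusted p = 1.21e-08). The GLP-1R agonist libraries lay above Vehicle (log2 fold change 0.19, adjusted p = 0.0338), whereas in BM they overlapped it.

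In Combo vs Vehicle of ATMs, 4 of 10 genes fell and 0 rose, where 12.2% of all genes fell and 14.1% rose, and 8 of 10 differed at the adjusted p alone (48.7% of all genes), Bcl2 upward. Fas had 1450, 1500 and 1466 normalized counts in Combo (log2 fold change -1.46, standard error 0.109, adjusted p = 1.74e-08). Bcl2l1 had 6863, 6831 and 6581 (-1.33, standard error 0.0459, adjusted p = 9.77e-13) and Bid 831, 681 and 787 (-1.48, standard error 0.122, adjusted p = 5.32e-08). All 3 genes lay far below Vehicle and still above WT.

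Bbc3 had 490, 388 and 458 normalized counts in ATM Combo (log2 fold change -1.02, standard error 0.185, adjusted p = 0.00026). This call rests on the limit, since the log2 fold change was -0.96 without Vehicle replicate 1, -0.99 without Vehicle replicate 3 and -0.93 without Combo replicate 2. Mcl1 (-0.92) and Bax (-0.80) stopped short of the limit at adjusted p of 1.17e-09 and 2.15e-07. Bak1 (146, 185 and 204 in Combo) did not pass the test, with a log2 fold change of -0.45 (95% interval -1.27 to 0.36).

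Bcl2 was the gene that went up, with 1634, 1591 and 1777 normalized counts in ATM Combo, above the 12 other libraries (log2 fold change 0.61 against Vehicle, standard error 0.0991, adjusted p = 8.84e-05). Several marker sums were also highest in the same 3 libraries. That of 8 T cell markers was 31977 to 32850 in Combo and 3837 to 18722 in the other groups, and that of 7 pancreatic acinar genes 30779 to 31048 against 252 to 896. That of 5 immature granulocyte markers was 11588 to 12348 against 156 to 859, and that of 10 cell cycle genes 20488 to 21364 against 5280 to 14135. Their part in the level of Bcl2 was not tested. Pmaip1 in Combo (4980, 5188 and 4494) overlapped Vehicle, with a log2 fold change of 0.02 (95% interval -0.16 to 0.21).

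**Figure D3:**
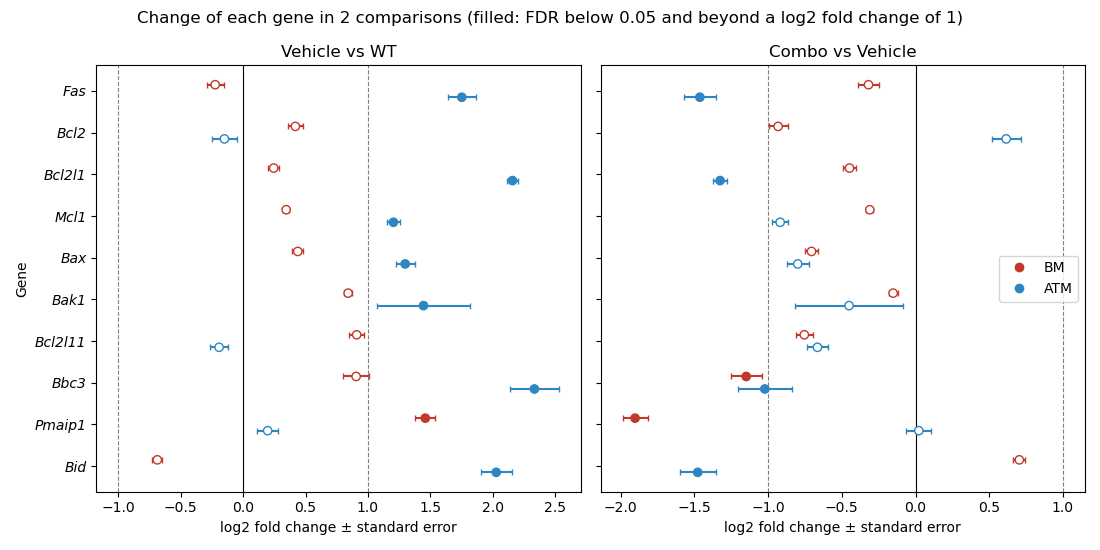
Log2 fold change ± standard error of the 10 genes in BM (red) and ATMs (blue) for Vehicle vs WT (left) and Combo vs Vehicle (right), with dashed lines at a log2 fold change of 1 in either direction and filled points for called genes. In Vehicle vs WT, 7 ATM points and 1 BM point are filled, and Fas and Bid lie left of 0 in BM and right of it in ATMs.

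ATM Combo was next set against the other groups. Against WT, 1 of 10 genes was higher past the limits, Bbc3 (log2 fold change 1.31, standard error 0.189, adjusted p = 3.98e-05), where 7.08% of all genes were, and 10 of 10 differed at the adjusted p alone (41.1% of all genes), 9 higher and Bcl2l11 lower (log2 fold change -0.86). Bak1 (0.99) made this count 2 without Combo replicate 1. Against the GLP-1R agonist 0 of 10 were called by edgeR and by DESeq2 (18.7% of all genes by edgeR), with 6 of 10 at the adjusted p alone (39.8% of all genes) and 6 at an unadjusted p below 0.05. Against anti-IL-17A likewise 0 of 10 were called by both tools (14.2% of all genes by edgeR), with 5 of 10 at the adjusted p alone (28.6% of all genes) and 7 at an unadjusted p below 0.05. Pmaip1 was 0.77 higher in Combo than under either agent, and Bcl2l11 was lower than under the GLP-1R agonist (log2 fold change -0.85).

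Departure from additivity in ATMs was positive past the limits for 7 of 10 genes (12.9% of all genes), and 9 of 10 passed the adjusted p alone (50.5% of all genes). It was 1.80 for Fas, 2.20 for Bcl2l1, 2.03 for Bbc3 and 1.34 for Bid on the log2 scale, with Mcl1 (1.06), Bak1 (1.75) and Pmaip1 (1.51) beside them. Fas, Bcl2l1, Bbc3 and Bid had each fallen past the limits under either agent alone, and their log2 fold changes under both agents were no larger in size than those under the agent with the larger change. Bcl2l11 had a departure of 0.10 (95% interval -0.12 to 0.32).

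**Figure D4:**
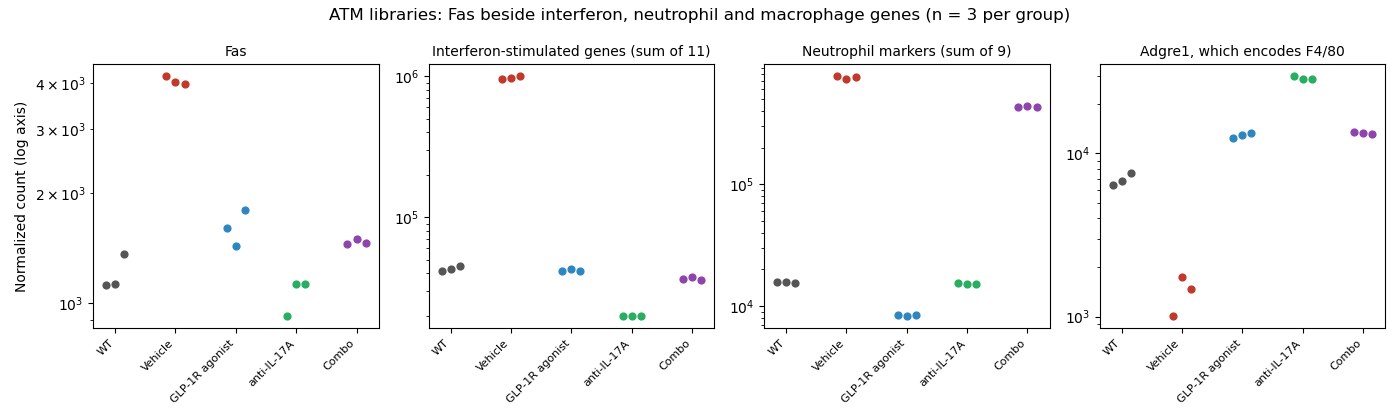
Normalized counts (log axes) in the 15 ATM libraries, 3 per group, of Fas, the sum of 11 interferon-stimulated genes, the sum of 9 neutrophil markers and Adgre1, which encodes F4/80. Fas and the interferon sum are high in Vehicle alone, the neutrophil sum is also high in Combo (427277 to 437150), and Adgre1 is lowest in Vehicle.

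Several marker sums were high in ATM Vehicle together with the 7 genes that rose there. The sum of 11 interferon-stimulated genes was 956865 to 996659 in Vehicle and 19775 to 44877 in the other groups, and the 7 genes were likewise highest in Vehicle. Neutrophil markers were high in Vehicle and, to a lesser level, in Combo. In Combo, Bcl2l1 (6581 to 6863) and Bbc3 (388 to 490) lay above the libraries of both single agents (4623 to 5454 and 267 to 353). Fas (1450 to 1500), Bid (681 to 831), Mcl1 (11195 to 12133) and Bak1 overlapped at least 1 single agent there, and Bax lay between the single agents. The adipocyte marker sum was high in Vehicle alone as well. The sum of 5 erythroid markers was 222426 to 225732 in Vehicle and 176498 to 181239 in Combo. It was 129154 to 136576 in WT and 39541 to 52449 under the single agents. The part of each in the levels of these genes was not tested.

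The tissues were compared directly as an interaction in a fit of 30 libraries, taken as independent, over 13076 shared genes. In Vehicle vs WT, 6 of 10 genes differed between ATMs and BM past the limits (28.7% of all genes) and 10 of 10 at the adjusted p alone (56% of all genes). In Combo vs Vehicle 4 of 10 did (28.1%), and 6 of 10 at the adjusted p alone (55.1%). Bid had the widest gap, 2.72 in Vehicle vs WT (standard error 0.115, adjusted p = 5.11e-17) and -2.14 in Combo vs Vehicle (standard error 0.113, adjusted p = 6.8e-15), where the value is the log2 fold change in ATMs minus that in BM. For Fas the values were 1.98 and -1.10. Those of Pmaip1 had the opposite signs, -1.26 and 1.97, and in Combo vs Vehicle Bcl2 differed by 1.59.

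The ratio of Bax to Bcl2 counts, a pore-forming gene over a prosurvival gene, is free of library scaling and is given as a description. In ATMs its log2 value was 0.63 ± 0.15 (SD, n = 3) in WT, 2.08 ± 0.02 in Vehicle, 0.98 ± 0.16 under the GLP-1R agonist, 1.49 ± 0.09 under anti-IL-17A and 0.67 ± 0.02 in Combo. Vehicle was above all other libraries, and Combo lay within the range of WT (0.47 to 0.75). In BM the log2 ratio was 1.03 ± 0.17 in WT and 1.05 ± 0.02 in Vehicle, which overlapped, 0.19 ± 0.11 under the GLP-1R agonist, 0.80 ± 0.07 under anti-IL-17A and 1.28 ± 0.11 in Combo.

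The rest of the pathway was read from 4 lists, each to be set against all genes tested. In ATM Vehicle vs WT 12.5% of all genes rose, 22.9% fell and 56.9% passed the adjusted p alone, and in ATM Combo vs Vehicle 14.1% rose, 12.2% fell and 48.7% passed it. In BM the shares were 9.44%, 10% and 76.6% in Vehicle vs WT and 6.58%, 11.1% and 73.8% in Combo vs Vehicle. Of 13 genes of death receptor signalling (Fas among them), 8 rose and 1 fell in ATM Vehicle vs WT, with a median log2 fold change of 1.71 (-0.21 over all genes), and 9 were higher and 1 lower at the adjusted p alone. Mlkl, the executioner of necroptosis, rose by 3.82, Tnfsf10, the ligand TRAIL, by 3.26, its receptor Tnfrsf10b by 2.99 and Cflar, which encodes the caspase-8 inhibitor FLIP, by 2.49 on the log2 scale. Fasl, the ligand of Fas, fell by 1.36 on the log2 scale, from 387 to 561 counts per library in WT to 80 to 237 in Vehicle. In Combo vs Vehicle, 8 of the 13 fell in ATMs, with log2 fold changes of -3.51 for Mlkl, -2.79 for Tnfrsf10b, -2.21 for Tnfsf10 and -2.19 for Cflar, and Fasl rose by 1.74. At the adjusted p alone 9 were lower and 1 higher. Fasl is made by T and NK cells, and the sum of 8 T cell markers was 9746 to 10265 in ATM WT, 3837 to 4405 in Vehicle and 31977 to 32850 in Combo.

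In BM, 4 of the 13 death receptor genes rose in Vehicle vs WT (median log2 fold change 0.58, -0.02 over all genes), with 10 higher and 2 lower at the adjusted p alone. They were Tnfsf10 (1.75 on the log2 scale), Mlkl (1.67), Tnfrsf10b (1.46) and Ripk3 (1.43), the kinase upstream of Mlkl. In Combo vs Vehicle 3 fell, with log2 fold changes of -3.37 for Fasl, -3.04 for Tnfsf10 and -1.24 for Mlkl, and 8 were lower and 3 higher at the adjusted p alone. Fas ligand reads were few there, 99 to 117 counts per library in Vehicle and 6 to 19 in Combo. The sum of 5 NK cell markers in BM was 2452 to 2637 in WT, 4903 to 5092 in Vehicle and 526 to 601 in Combo, and that of 8 T cell markers 3694 to 3850, 2867 to 2887 and 1583 to 1755. The part of these cells in the level of Fasl was not tested in either tissue.

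Among the other BCL2 family genes, 12 of 14 were tested in BM, where 6 rose and 1 fell in Vehicle vs WT (7 higher and 3 lower at the adjusted p alone) and 7 fell in Combo vs Vehicle (8 lower and 2 higher at the adjusted p alone). Of all genes in BM, 9.44% rose and 10% fell in the former comparison and 11.1% fell in the latter. Bcl2a1a, Bcl2a1b and Bcl2a1d, near-identical copies of a prosurvival gene of myeloid cells, differed by 3.25, 2.34 and 2.31 in Vehicle vs WT and by -4.54, -4.23 and -4.32 in Combo vs Vehicle on the log2 scale. Only uniquely mapped reads were counted, so reads that fit several such copies were left out and the value of each copy is uncertain. Bcl2l14 rose by 1.98 on the log2 scale and Bok, a relative of Bax and Bak1, fell by 1.83 in Vehicle vs WT. In ATMs 13 of 14 were tested, and 4 rose and 1 fell in Vehicle vs WT (12.5% and 22.9% of all genes), with 5 higher and 2 lower at the adjusted p alone. The largest changes there were 2.58 for Bcl2a1a and 1.60 for Bik, a BH3-only gene. Bcl2l2, a prosurvival gene, fell by 1.35. In ATM Combo vs Vehicle 3 fell, with log2 fold changes of -4.84 for Bcl2l14, -1.81 for Bcl2a1a and -1.04 for Bnip3, and Bcl2a1b (0.32) and Bcl2a1d (0.17) stayed within the limit. At the adjusted p alone 4 were lower and 2 higher, and 12.2% of all genes fell.

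The 13 genes of the apoptosome, the caspases and their inhibitors stayed within the log2 limit in BM Vehicle vs WT, with 9 past the adjusted p alone (76.6% of all genes). In BM Combo vs Vehicle 1 was called, Cycs (cytochrome c), which fell by 1.02, with 7 lower and 4 higher at the adjusted p alone. In ATMs 5 rose in Vehicle vs WT (12.5% of all genes), with 7 higher and 2 lower at the adjusted p alone. They were Birc3 and Cycs (1.39 each on the log2 scale), Htra2 (1.09), Apaf1 (1.06) and Xiap (1.02). In ATM Combo vs Vehicle Cycs, Birc2 and Birc3 fell, with log2 fold changes of -1.39, -1.35 and -1.23, and Birc5, a gene of dividing cells, rose by 3.68. The sum of 10 cell cycle genes was 20488 to 21364 in ATM Combo and 5826 to 6514 in Vehicle, and its part in the level of Birc5 was not tested. At the adjusted p alone 5 of the 13 were lower and 3 higher.

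Of 13 genes of p53 and its targets, 2 rose in BM Vehicle vs WT, Cdkn1a (the cell cycle inhibitor p21) by 2.91 and Tnfrsf10b by 1.46, and 2 fell in Combo vs Vehicle, Cdkn1a (log2 fold change -2.72) and Phlda3 (-1.04). Both shares are near those of all genes (9.44% and 11.1%), and 10 and 11 of the 13 passed the adjusted p alone (76.6% and 73.8% of all genes). In ATMs 5 rose and 1 fell in Vehicle vs WT (12.5% and 22.9% of all genes), with 9 higher and 3 lower at the adjusted p alone. Tnfrsf10b rose by 2.99, Cdkn1a by 1.84, Eda2r by 1.82 and Sesn2 by 1.76, and Ccng1 fell by 1.15. In ATM Combo vs Vehicle 6 fell (12.2% of all genes), with 10 lower and 2 higher at the adjusted p alone, among them Tnfrsf10b (log2 fold change -2.79), Cdkn1a (-2.33), Eda2r (-2.17), Sesn2 (-2.01) and Phlda3 (-1.33). Trp53 itself had log2 fold changes of -0.04 in BM and 0.53 in ATMs in Vehicle vs WT. Mdm2, a p53 target that limits p53, was 0.27 and 0.31 higher, and Bbc3 and Pmaip1, which p53 can also induce, are described above.

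The genes whose normalized counts followed a member most closely over the 15 libraries of a tissue are given as a description. For Fas in ATMs they were Casp4 (Pearson's r = 0.991), Cd274 (r = 0.991) and Cfb (r = 0.986) of 12589 genes compared, and in BM Tubb2b (r = 0.961), Oxld1 (r = 0.951) and Dpp4 (r = 0.942) of 10578. For Mcl1 they were Znrf1, H2-D1 and Cd47 in ATMs (r = 0.989 to 0.990) and Oas3, Samhd1 and Rab44 in BM (r = 0.984 to 0.989). For Bcl2 in ATMs the pancreatic genes Cel (r = 0.937) and Cela2a (r = 0.930) came first, followed by Pou2af1 (r = 0.923), a B cell gene, and in BM Ndor1, Ptbp2 and Dyrk3 (r = 0.967 to 0.976). For Bcl2l11 they were Cryab, Cebpd and Ltbp1 in ATMs (r = 0.967 to 0.971) and Ager, Rbbp8 and Tlk2 in BM (r = 0.974 to 0.986). The points share 5 groups of 3 libraries, so each r follows mainly the order of the group means.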

How the data were processed

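The authors aligned paired reads with STAR 2.7.2a to mm10 and counted them with featureCounts 2.0.1 on GENCODE M22 genes, ignoring strand and giving a read that overlaps several genes to all of them. The deposited values are raw counts, and genes with low totals had been removed (smallest total 55 in BM, 54 in ATMs). Groups came from the sample labels.

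Each table was fitted whole with edgeR 4.0.16 in R 4.3.3 (TMM scaling, filterByExpr, robust quasi-likelihood, 15 libraries, 2-sided, Benjamini-Hochberg over all genes). Tissue differences were tested in edgeR, with voom of limma 3.58.1 as the alternative. DESeq2 1.42.0, other filters, a replicate block and leaving out each library were the other alternatives. The minimum for nearest genes was a mean of 100 normalized counts. On simulated Vehicle vs WT counts with 200 genes changed 4-fold, edgeR recovered 195 in BM, 155 in ATMs and 161 in the tissue difference. Those changes were few and equally split up and down, whereas 12.5% of all genes rose and 22.9% fell in ATM Vehicle vs WT. Recovery under such a shift was not tested. Annotation was GENCODE M21 on the same build.

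The members, the gene lists and the rule for named genes (all members; at most 5 called genes per list with the largest change in Vehicle vs WT or Combo vs Vehicle; the 3 nearest genes of Fas, Bcl2, Bcl2l11 and Mcl1) were chosen with earlier results of these data known. Bcl2a1b and Bcl2a1d in ATM Combo, Bcl2l13, Trp53, Mdm2, marker genes and Xist were named besides, after their values were seen.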

Additional observations from a re-analysis of the deposited data

Results flagged for a closer look

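The effect of a comparison differed between ATMs and BM by the interaction test at an adjusted p below 0.05 for all 10 genes in Vehicle vs WT and for 6 in Combo vs Vehicle. The values are the log2 fold change in ATMs minus that in BM. In Vehicle vs WT it was 1.98 for Fas, 2.72 for Bid, 1.92 for Bcl2l1, 1.42 for Bbc3, 0.86 for Mcl1, 0.86 for Bax and 0.60 for Bak1, and it was negative for Bcl2 (-0.57), Bcl2l11 (-1.10) and Pmaip1 (-1.26). For Bak1 the adjusted p was 0.0481 by edgeR and 0.307 by limma voom with a variance factor per tissue. In Combo vs Vehicle it was -1.10 for Fas, -2.14 for Bid, -0.84 for Bcl2l1 and -0.57 for Mcl1, and positive for Bcl2 (1.59) and Pmaip1 (1.97). The tissues differ in cell makeup, and its part in these differences was not tested.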

How the results depend on the processing

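Over 160 member log2 fold changes and 16 counts of members called, DESeq2, its size factors in edgeR and the absence of a low-count filter kept each call and count, and reversed 2, 2 and 0 log2 fold changes, all near 0. Without the fold-change limit the counts were 10 (Vehicle vs WT), 7 (GLP-1R agonist vs Vehicle), 9 (anti-IL-17A vs Vehicle), 10 (Combo vs Vehicle), 7 (Combo vs WT), 8 (Combo vs GLP-1R agonist), 5 (Combo vs anti-IL-17A) and 8 (additivity) in BM, and 9 (anti-IL-17A vs Vehicle), 8 (Combo vs Vehicle), 10 (Combo vs WT), 6 (Combo vs GLP-1R agonist) and 5 (Combo vs anti-IL-17A) in ATMs. In ATM Combo vs WT the count was 2, with Bak1 added, under a filter of at least 10 counts in every library and in a fit of the groups compared alone. That filter moved the median of all genes by 0.20 on the log2 scale in ATM Vehicle vs WT and ended the ATM calls of Mcl1 under anti-IL-17A and Bbc3 in Combo vs Vehicle.

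Leaving out 1 library gave 1 to 2 calls in ATM Combo vs WT (2 without Combo replicate 1) and 1 to 2 in BM GLP-1R agonist vs Vehicle (2, with Bak1, without Vehicle replicate 1). In ATM GLP-1R agonist vs Vehicle, Bax was lost without Vehicle replicate 3 or GLP-1R agonist replicate 3 and Bak1 without GLP-1R agonist replicate 2. In ATM anti-IL-17A vs Vehicle, Bak1 was gained without Vehicle replicate 1 or anti-IL-17A replicate 3.

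Log2 fold changes that changed sign were near 0. In BM they were Bcl2l11 in GLP-1R agonist vs Vehicle (-0.00348 with DESeq2's size factors, -0.00344 in DESeq2, -0.000199 with the groups compared alone, -0.0268 to 0.0402 leaving out 1 library), Bbc3 in the same comparison (-0.0110 to 0.124 leaving out 1 library), Bid in Combo vs WT (-0.00939 with at least 10 counts, -0.0102 to 0.0480 leaving out 1 library) and Fas in Combo vs GLP-1R agonist (-9.08e-05 with DESeq2's size factors, -0.000558 in DESeq2, -0.0216 with at least 10 counts, -0.00362 with the groups compared alone, -0.0635 to 0.0716 leaving out 1 library). In BM Combo vs anti-IL-17A, the groups compared alone gave -0.00309 for Mcl1, -0.0167 for Bax and -0.0200 for Bid, and leaving out 1 library -0.00188 to 0.0488 for Bax and -0.0108 to 0.0478 for Bid. In ATMs, leaving out 1 library gave -0.0178 to 0.155 for Bid and -0.00703 to 0.0531 for Mcl1 in Combo vs GLP-1R agonist, and -0.0228 to 0.0790 for Pmaip1 in Combo vs Vehicle. The cause of these changes was not tested.

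Deviations of same-numbered libraries correlated across the groups of a tissue at -0.0318 to 0.0541 in BM and -0.0190 to 0.0206 in ATMs. No pairing by replicate number was seen, but with 3 libraries per group these values cannot exclude one. Whether BM and ATM libraries of the same number came from the same mouse was not tested. With the number as a replicate block, 7 of 10 members were called in ATM Vehicle vs WT and 6 in ATM anti-IL-17A vs Vehicle (Bak1 gained), and the other counts were as without it. The 6 and 4 tissue differences held under limma voom. With 3 libraries per group and a spread of 32.5% in ATMs, depth limits chiefly Bak1 (54 to 231 counts).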
